A study of Arabidopsis thaliana with 12 samples.

Results

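The 40 genes described here are nuclear genes whose products work in the photosynthetic apparatus of the chloroplast, followed across 12 RNA-seq libraries from Arabidopsis thaliana roots. They are listed by gene identifier and by what they encode. Of the 37884 genes in the deposited table they are the 4 LHCA antenna genes of photosystem I, 14 LHCB antenna genes of photosystem II, 10 genes for photosystem I subunits, 7 genes for photosystem II proteins, and 5 genes for the Rubisco small subunit and Rubisco activase. All 40 were found in the table and all 40 passed the filter on low values, 10 normalized counts or more on average across the 12 libraries. Roots were taken from 4-day-old seedlings on agar medium, in 4 groups of 3 libraries. ERF115OX carried 35S:ERF115 and ERF114OX carried 35S:ERF114, which express these AP2/ERF transcription factors from the broadly active cauliflower mosaic virus promoter. ERF115-SRDX carried 35S:ERF115-SRDX, the same factor fused to the SRDX repression motif, and WT was untransformed Col-0. ERF114 libraries are also named ERF115OX in their genotype field, and here they are grouped by title. How many independent transgenic lines stand for a construct is not stated in the labels. Nor is it stated that the 3 libraries of a group were grown separately, and a p-value then reflects only library-to-library spread, part of which may be technical.

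Photosystem II takes electrons from water and photosystem I passes them to ferredoxin, and each reaction centre is fed by light-harvesting proteins that bind chlorophyll. Rubisco fixes CO2 in the Calvin cycle, and Rubisco activase frees its active sites. The antenna proteins, many photosystem subunits and the Rubisco small subunit are encoded in the nucleus and imported into plastids, and their genes are strongly expressed in green leaves. Most root plastids are not green, but roots grown in light can form some chloroplasts, for which the transcription factors GLK2 and HY5 are known activators in Arabidopsis.

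The libraries held 47242114 to 48343410.0 reads on genes, so that 3 reads, taken as the floor, were worth 2.90 to 3.18 normalized counts. The ERF115 locus read 34638, 38360.1 and 36973 normalized counts in ERF115OX and 84451, 88807 and 83518 in ERF115-SRDX, against 4.86, 23.4 and 561 in WT, where the third library stood above the other two. The ERF114 locus read 44417, 47807 and 47330.5 in ERF114OX, against 35.0, 10.7 and 12.9 in WT. A list of 17 root cell type genes, among them the endodermal CASP genes and the abundant beta-glucosidase gene PYK10, summed to 468149 to 552514, 449074 to 499262 and 467756 to 540244 normalized counts in ERF115OX, ERF114OX and ERF115-SRDX, against 441193 to 492431 in WT, and no member of it stood at 0 in any library. PYK10 made up most of these sums, with 1332013 reads over the WT libraries, where PHO1, the next highest, had 43398. The sums therefore do not describe the other genes of the list. The mean of log2(normalized count + 1) over the 17 genes was 10.6, 10.7 and 10.5 in the 3 lines, against 10.6 in WT. Over all genes, the counts of ERF114OX 1 differed from those of libraries 2 and 3 with a chi-square per gene of 32.3 and 29.0, where sampling noise alone gives about 1, against 5.05 between libraries 2 and 3. For ERF115-SRDX 2 it was 19.2 and 20.8, against 5.26 between libraries 1 and 3, for ERF115OX 1 19.1 and 22.9, against 7.67, and among the WT libraries 20.2 to 40.2. In bulk RNA, fewer cells of a type and less RNA per cell cannot be told apart.

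The photosynthesis genes were readily measured in the roots of all groups, at levels that differed widely between libraries. Their summed share of all normalized counts was 1.44, 1.08 and 1.13% in ERF115OX, 0.477, 1.47 and 1.42% in ERF114OX and 0.0413, 0.479 and 0.0452% in ERF115-SRDX, against 2.51, 1.80 and 3.56% in WT. Every transgenic library lay below every WT library, and ERF115-SRDX 1 and 3 lay below all others. The mean share was 1.22 ± 0.197% for ERF115OX, 1.12 ± 0.560% for ERF114OX and 0.188 ± 0.251% for ERF115-SRDX, against 2.62 ± 0.890% for WT (SD, n = 3 each). Without ERF115-SRDX 2 the mean of its group was 0.0433%, and without ERF114OX 1 that of its group was 1.45%. Taken gene by gene, the median level was 54.5, 40.9 and 42.3% of the WT mean in the ERF115OX libraries, 16.5, 57.9 and 54.9% in ERF114OX and 1.46, 21.4 and 1.45% in ERF115-SRDX, against 93.9, 69.3 and 138% in the WT libraries themselves.

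**Figure D1:**
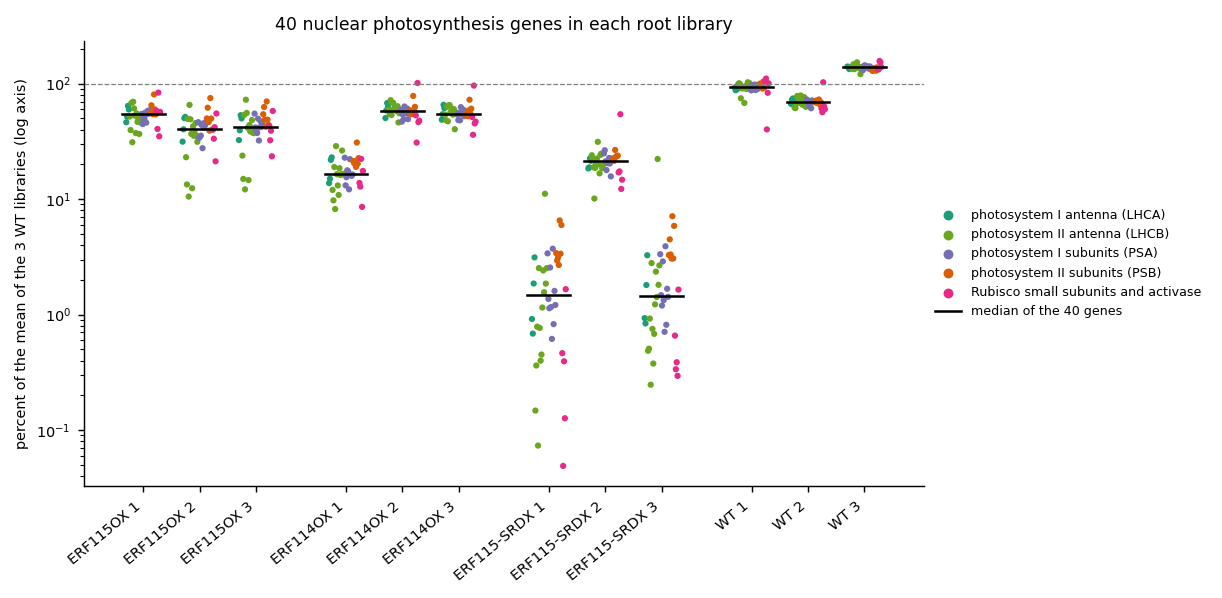
Level of each of the 40 genes in each of the 12 root libraries, as a percentage of the mean of the 3 WT libraries on a log axis, with 1 point per gene coloured by role and a black bar at the median of the 40 genes. The medians sit at 1.46% and 1.45% in ERF115-SRDX 1 and 3, and at 21.4% in ERF115-SRDX 2.

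In roots of ERF115-SRDX all 40 genes fell relative to WT, and none rose. The median log2 difference was -4.78, against -0.0011 over all 23375 genes tested. Of all genes tested, 26.6% were called lower in this comparison (two-sided limma test on log2 of normalized count + 1, p adjusted by Benjamini-Hochberg, threshold 0.05) and 23.4% higher. The median was -4.88 for the LHCA genes, -5.15 for the LHCB genes, -4.80 for photosystem I subunits, -3.94 for photosystem II proteins and -5.78 for the Rubisco genes. The change ran from -2.41 for LHCB4.3, a minor antenna gene, to -7.36 for LHCB1.4, a gene of the major antenna. For 39 of the 40 genes every ERF115-SRDX library lay below every WT library, which held for 30.4% of all genes tested. The exception was RBCS2B, a Rubisco small subunit gene, where ERF115-SRDX 2 was above WT 1. With only these 2 groups in the fit 40 genes were again called lower (background 25.8%), and likewise without ERF114OX 1 and ERF115-SRDX 2 (background 25.5%). With edgeR 39 genes were called lower (background 27.4%), and with DESeq2 38 of the 39 that received an adjusted p (background 25.6%), the gene lost in both being RBCS2B. The median was -3.70 with edgeR and -3.65 with DESeq2, whose fold changes compare group means of counts rather than means of logs and so weigh ERF115-SRDX 2 more. Without ERF115-SRDX 2 the count was again 40 (background 25.2%) and the median was -6.04.

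Most genes listed for aerial tissues were also lower in the transgenic lines. Within each group the summed mesophyll genes, mostly CA1 and CA2 transcript, ranked the libraries as the photosynthesis genes did. The stomatal and shoot sums did not do so in every group. A list of 4 leaf mesophyll and myrosin cell genes (the carbonic anhydrases CA1 and CA2 and the myrosinases TGG1 and TGG2) summed to 15136, 7837 and 8275 normalized counts in ERF115OX, 3640.2, 17557 and 17301 in ERF114OX and 42.3, 8092 and 147 in ERF115-SRDX, against 36772, 21179 and 60438 in WT. ERF115-SRDX 1 and 3 were lowest and ERF114OX 1 was next, as for the photosynthesis genes. The sum was mostly carbonic anhydrase transcript in WT, where CA1 and CA2 had 76325 and 26736 reads, against 16131 for TGG1 and 1031 for TGG2. CA1 had the most reads of the 4 in every group. The order of the sums is thus no separate measure of each gene, and is no independent support for a change of leaf tissue. All 4 fell in ERF115-SRDX (background 26.6% lower), with a median log2 difference of -5.96. None of the 4 passed the test by limma in ERF115OX or ERF114OX (background 15.7% and 19.6% lower). Without ERF114OX 1 and ERF115-SRDX 2 in the fit 3 and 1 did in these lines (background 17.8% and 19.1%). The TGG1 call was lost with edgeR and with DESeq2. Of 19 genes of stomata and the aerial epidermis 13 were tested, and 13 fell in ERF115-SRDX, 8 in ERF115OX and 10 in ERF114OX, with no rise (background 26.6%, 15.7% and 19.6% lower). The filter used the mean over all 12 libraries, so a gene low in the lines could pass it through WT. STOMAGEN, for example, had 36, 30 and 2 reads in ERF115OX, ERF114OX and ERF115-SRDX, against 196 in WT. For such genes, here and in the shoot list below, a fall is in part fixed by the filter. The stomatal and epidermal genes summed to 11006 to 13081 in ERF115OX, 4903 to 9448 in ERF114OX and 3847 to 5275 in ERF115-SRDX, against 16052 to 25456 in WT. Of 8 genes of the shoot meristem and leaf patterning 7 were tested, and 6 fell in ERF115-SRDX while KAN1 rose (background 23.4% higher). In ERF115OX 6 fell and in ERF114OX 3, against the same backgrounds. The median log2 difference of the 7 was -4.38 in ERF115-SRDX, -3.68 in ERF115OX and -2.41 in ERF114OX. With ERF115-SRDX set against ERF115OX, 1 was lower and 1 higher (background 29.6% and 26.4%), with a median of -0.56. In that comparison 39 of the 40 photosynthesis genes were lower, with a median of -3.72. This list summed to 2563 to 2996 in ERF115OX, 2520.1 to 2718 in ERF114OX and 2410.2 to 2519.8 in ERF115-SRDX, against 3664 to 4790.3 in WT, and neither its sums nor the stomatal and epidermal ones followed the library order of the photosynthesis genes within every group, WT 1 being the highest WT library of both. Both sums rest mainly on a few genes. Over the WT libraries AS1, KNAT1 and KAN1 had 5078, 3227 and 2473 reads, against at most 1090 for any other gene of the shoot list. The epidermal genes FDH, CER6 and PDF1 had 16751, 11248 and 10257, against 644 for TMM, the highest of the stomatal genes. The order of the sums therefore does not describe the lower genes of either list. The stomatal genes FAMA, STOMAGEN, EPF1 and BASL, the meristem gene STM, the leaf patterning genes FIL and YAB5 and the myrosinase gene TGG2 stood at 0 in ERF115-SRDX 1 and 3, and MUTE, the master regulator of guard mother cells, at 0 in all 3 ERF115-SRDX libraries. CLV3, of the shoot stem cells, also had 0 reads there and in ERF114OX, with 6 in ERF115OX and only 8 over the 3 WT libraries. Low values of some of these genes were not particular to ERF115-SRDX. Summed over 3 libraries, STM, EPF1, YAB5 and MUTE had 2, 2, 14 and 6 reads in ERF115OX, against 2, 4, 16 and 0 in ERF115-SRDX. FAMA, STOMAGEN, BASL and FIL had 63, 36, 12 and 76, against 6, 2, 2 and 36, and TGG2 had 61, against 127. In WT, STM, which maintains the shoot meristem, had 45.7, 11.7 and 45.8 normalized counts and FAMA, which acts in guard cell formation, had 133, 70.2 and 112. The part of such transcripts in the changes of the photosynthesis genes was not tested. Of the 17 root cell type genes 1 fell in ERF115-SRDX against WT, the phosphate exporter gene PHO1, and none rose (background 26.6% lower and 23.4% higher). With only these 2 groups in the fit, 1 fell and 2 rose (background 25.8% lower). Against ERF115OX, 5 were lower in ERF115-SRDX, near the background of 29.6%. CASP4, PLT2 and WER were higher (background 26.4%).

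**Figure D2:**
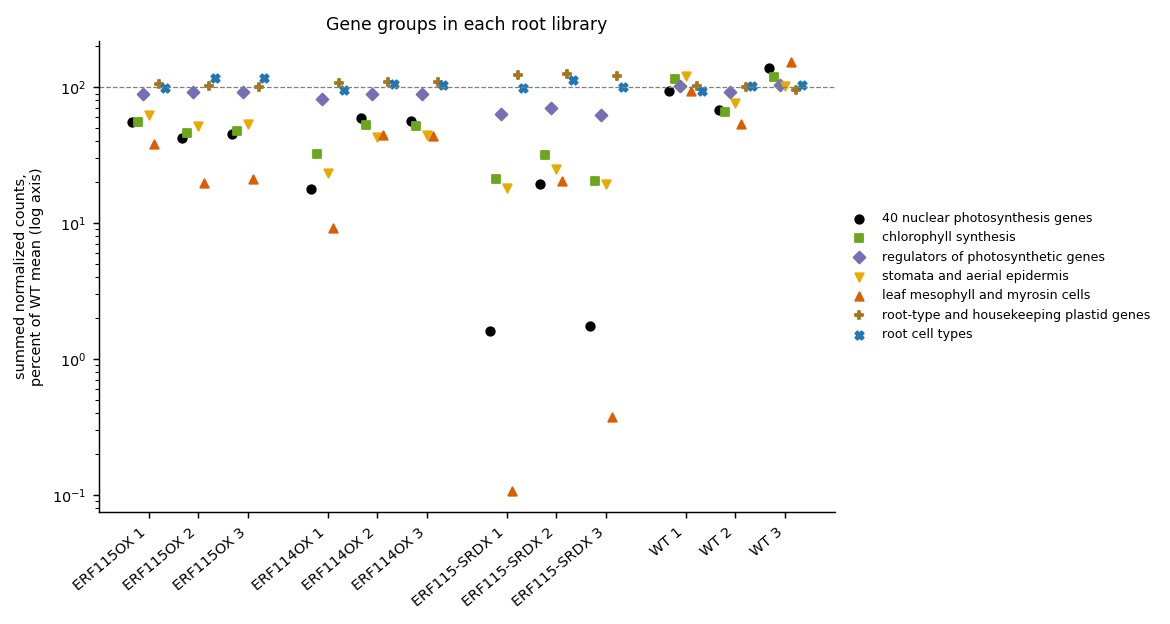
Summed normalized counts of gene groups in each of the 12 libraries, as a percentage of the WT mean on a log axis, with 1 symbol per group and library and a dashed line at 100%. The mesophyll and photosynthesis groups are lowest in ERF115-SRDX 1 and 3, while the sum of the root cell type genes, most of it PYK10, stays near 100% in all libraries.

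The 2 overexpressing lines were set against the same WT libraries, so the comparisons share their controls. In ERF115OX the median log2 difference of the 40 genes was -1.05, and in ERF114OX it was -1.35, against -0.0013 and -0.014 over all genes tested. No gene of the 40 had a positive difference in either line. With all 4 groups in the fit, only LHCB4.3 was called lower, in both lines (background 15.7% of all genes in ERF115OX and 19.6% in ERF114OX), and none higher (background 16.4% and 17.5%). Unadjusted p-values under 0.05 numbered 1 and 3 of 40, and edgeR and DESeq2 called LHCB4.3 alone as well (lower calls over all genes 18.1% and 23.1% with edgeR, 17.5% and 20.6% with DESeq2). The limma fit estimates the spread of a gene over the libraries of all 4 groups, ERF115-SRDX 2 included. With only the 2 groups compared in the fit, 36 of 40 genes were called lower in ERF115OX (background 14.6%) and 12 of 40 in ERF114OX (background 18.0%). Without ERF115-SRDX 2 the counts were 19 (background 16.3%) and 35 (background 20.5%), and without ERF114OX 1 and ERF115-SRDX 2 they were 38 (background 17.8%) and 32 (background 19.1%). These 2 libraries were left out because they were known to stand apart in the same 40 genes, so the counts without them describe the fit and are no independent support. The 2 genes that then missed the threshold in ERF115OX were RBCS2B and PSBR, which encodes a small photosystem II protein. In ERF114OX the 8 that missed it were LHCB1.1 to LHCB1.4, LHCB2.1, LHCB2.3, PSBR and RBCS2B. Every library of ERF115OX lay below every WT library for 37 of 40 genes (background 22.4%), and the same count was found for ERF114OX (background 25.8%), the exceptions in both lines being LHCB1.3, PSBR and RBCS2B. Without ERF114OX 1 the median in ERF114OX was -0.77. The median in ERF115OX was -1.33 without WT 2 and -0.80 without WT 3.

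**Figure D3:**
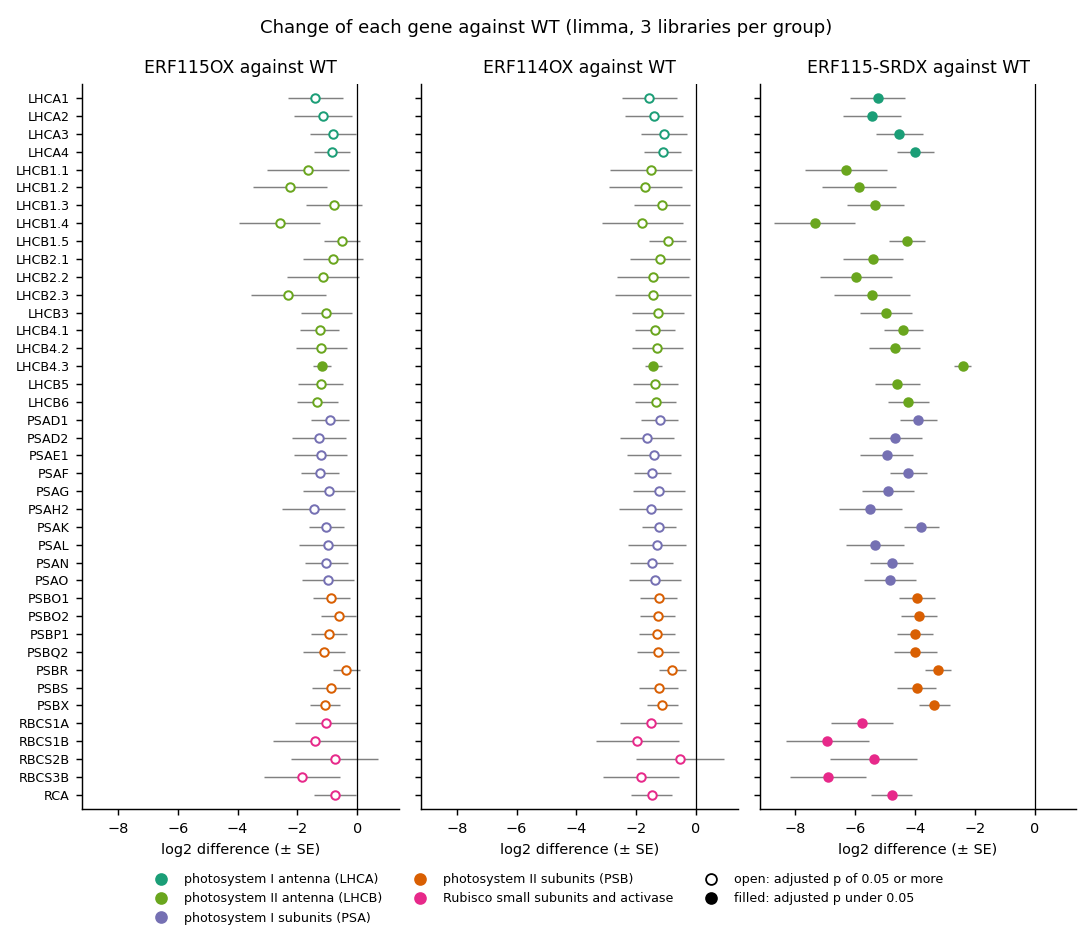
Log2 difference of each of the 40 genes against WT, with its SE, from limma over 12 libraries, in a panel each for ERF115OX, ERF114OX and ERF115-SRDX, coloured by role, with open points where the adjusted p was 0.05 or more. All points lie left of 0, and the filled points are LHCB4.3 in the first 2 panels and all 40 genes in the third.

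ERF115-SRDX was also set directly against ERF115OX, which carries the same factor without the repression motif. Of the 40 genes 39 were called lower in ERF115-SRDX (background 29.6%) and none higher (background 26.4%), with a median log2 difference of -3.72. The gene that was not called was LHCB2.3, a major antenna gene (log2 difference -3.13 ± 1.26 (SE), limma adjusted p = 0.0502, with adjusted p from 5.5e-07 to 0.55 over the settings tried). Without ERF115-SRDX 2 all 40 were called (background 28.6%) and the median was -4.99. All 40 were called as well without ERF114OX 1 and ERF115-SRDX 2 (background 29.1%), and 39 with only these 2 groups in the fit (background 28.9%). The calls of LHCB1.1, LHCB1.2 and RBCS2B were each lost on leaving out a single library, ERF115-SRDX 1 for all 3, ERF115-SRDX 3 or ERF115OX 1 for LHCB1.2 and RBCS2B. The count was 31 with edgeR (background 28.7%) and 30 with DESeq2 (background 27.9%), both of which lost LHCB1.1, LHCB1.2, LHCB2.2, LHCB2.3, PSAD2, PSAH2, RBCS2B and RBCS3B. The ERF115-SRDX libraries lay below all ERF115OX libraries for 36 genes (background 33.3%), the exceptions being LHCB1.1, LHCB1.2, LHCB2.3 and RBCS2B, where ERF115-SRDX 2 exceeded 1 or more ERF115OX libraries.

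LHCA1 to LHCA4 encode the antenna proteins that surround photosystem I. LHCA4 had the highest level of the 4 per kilobase of coding sequence, with 38837, 35459.9 and 6719 normalized counts per kb in ERF115OX, ERF114OX and ERF115-SRDX, against 72298 in WT. By library LHCA4 (AT3G47470) had 32636, 28132 and 27315 in ERF115OX, 12558, 34379 and 33486 in ERF114OX and 1710.1, 11744 and 1785 in ERF115-SRDX, against 49011, 38664 and 76297 in WT (normalized counts, as in all values by library that follow, given in the order of libraries 1, 2 and 3). ERF115-SRDX 1 and 3 were far below the rest, ERF115-SRDX 2 and ERF114OX 1 were close to each other, and no transgenic library reached the WT range. LHCA4 fell least of the 4 in ERF115-SRDX (log2 difference -3.99 ± 0.62 (SE), limma adjusted p = 0.00014), and LHCA2 fell most (log2 difference -5.44 ± 0.97 (SE), limma adjusted p = 0.00045). LHCA2 (AT3G61470) had 13263, 10294 and 10102 in ERF115OX, 3845, 15028 and 13903 in ERF114OX and 175, 4821 and 215 in ERF115-SRDX, against 22439, 18604 and 35745 in WT. The 3 lines again lay wholly below WT, and the gap between ERF115-SRDX 2 and the other two libraries of its line was wider than for LHCA4. In ERF115OX the 4 LHCA genes stood at 36.7 to 55.9% of the WT mean, LHCA1 lowest and LHCA3 highest, and in ERF114OX at 37.6 to 51.8%, with the same genes at the ends. None of these 8 differences was called by limma with all groups in the fit.

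LHCB1, LHCB2 and LHCB3 encode the major trimeric antenna of photosystem II, and LHCB4, LHCB5 and LHCB6 the minor monomeric antenna. LHCB1.3 (AT1G29930) had the highest mean over the 12 libraries of the 40 genes, with 94378, 68382 and 74164 in ERF115OX, 26245, 99407 and 87574 in ERF114OX and 1088, 26121 and 1278 in ERF115-SRDX, against 136989.9, 92498 and 185838 in WT. ERF114OX 2 was above WT 2 for this gene, so the ERF114OX and WT libraries overlapped, as did ERF115OX 1 and WT 2, while the ERF115-SRDX libraries lay below all others, ERF115-SRDX 2 only just below ERF114OX 1. The log2 difference in ERF115-SRDX was -5.33 ± 0.94 (adjusted p = 0.00041) (limma). LHCB4.3 (AT2G40100) had the lowest mean, with 179, 223 and 237 in ERF115OX, 129, 226 and 197 in ERF114OX and 54.4, 121 and 109 in ERF115-SRDX, against 503, 374 and 591 in WT. Its SE in the limma fit was the smallest of the 40 genes, and in each line its 3 libraries lay below the 3 WT libraries. Its log2 difference was -1.18 ± 0.29 (adjusted p = 0.0092) in ERF115OX, -1.42 ± 0.29 (adjusted p = 0.0028) in ERF114OX and -2.41 ± 0.29 (adjusted p = 1.8e-05) in ERF115-SRDX by limma, and against ERF115OX it was -1.23 ± 0.29 (adjusted p = 0.0031) in ERF115-SRDX. The call in ERF115OX held in all 24 fits, with adjusted p from 2.3e-05 to 0.040, as did the call in ERF114OX, with 3.8e-07 to 0.015.

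LHCB1.4 and LHCB1.5 are neighbours on chromosome 2, on opposite strands with no protein-coding gene between them, and they sat at opposite ends of the LHCB1 family. LHCB1.4 (AT2G34430) had 8958, 3032 and 3497 in ERF115OX, 2364, 15412 and 13582 in ERF114OX and 21.2, 2912 and 71.2 in ERF115-SRDX, against 21518, 22504 and 42392 in WT. In ERF115-SRDX 1 and 3 it rested on 21 and 72 reads, and ERF115OX 2 and 3 were close to ERF114OX 1 and ERF115-SRDX 2. It fell in ERF115-SRDX with a log2 difference of -7.36 ± 1.35 (adjusted p = 0.00055) by limma, where DESeq2 gave no adjusted p. LHCB1.5 (AT2G34420) had 72003, 67633 and 75001 in ERF115OX, 29741, 70694 and 67013 in ERF114OX and 2614, 19271 and 2889.7 in ERF115-SRDX, against 94344, 77836 and 137926 in WT. It kept 2.53% and 2.80% of the WT mean in ERF115-SRDX 1 and 3, where LHCB1.4 kept 0.0735% and 0.247%. No library of the 3 lines reached the WT range for LHCB1.5. Its log2 difference in ERF115-SRDX was -4.25 ± 0.60 (adjusted p = 6.8e-05) against WT and -3.76 ± 0.60 (adjusted p = 0.00017) against ERF115OX by limma. Coding sequences of this pair are 92.5% identical over aligned bases, and those of LHCB1.1, LHCB1.2 and LHCB1.3 95.6 to 96.4%, so how reads were split within the family is uncertain. The 250 bases before the annotated start of each gene of the divergent pair are shown because the 2 genes are adjacent and close in sequence but kept such different levels. They are from RefSeq assembly TAIR10.1, chromosome 2, chr2:14524357-14524606 on the plus strand for LHCB1.4 and chr2:14523569-14523818 on the minus strand for LHCB1.5, each read 5′ to 3′ along its gene, with the motif CCAATC in capitals.
LHCB1.4: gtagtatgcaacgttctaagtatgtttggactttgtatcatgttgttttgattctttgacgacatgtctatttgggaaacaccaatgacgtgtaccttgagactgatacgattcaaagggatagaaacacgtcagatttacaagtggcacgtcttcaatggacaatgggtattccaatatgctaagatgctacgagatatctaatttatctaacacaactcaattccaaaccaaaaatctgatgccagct
LHCB1.5: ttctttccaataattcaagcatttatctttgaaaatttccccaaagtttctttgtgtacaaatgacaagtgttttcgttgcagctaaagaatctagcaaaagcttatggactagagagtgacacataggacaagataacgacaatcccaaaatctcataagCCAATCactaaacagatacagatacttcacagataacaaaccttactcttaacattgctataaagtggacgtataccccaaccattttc
The LHCB1.5 window holds 1 CCAATC element, with its first base 89 bases before the start, and the LHCB1.4 window holds none of the motifs searched.

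The LHCB2 genes encode the other abundant protein of the major antenna. LHCB2.1 (AT2G05100) had 13154, 10581 and 12019.6 in ERF115OX, 3541, 14687 and 14055 in ERF114OX and 165, 4351 and 162 in ERF115-SRDX, against 19719, 15359 and 29554 in WT. LHCB2.2 (AT2G05070), its neighbour on chromosome 2, had 10537, 7319 and 8277 in ERF115OX, 2619, 12106 and 11213 in ERF114OX and 79.6, 4481 and 75.1 in ERF115-SRDX, against 18153, 14041 and 27621 in WT. LHCB2.3 (AT3G27690) had 3087, 1027 and 1209 in ERF115OX, 898, 5175 and 5069.8 in ERF114OX and 37.3, 2591 and 56.3 in ERF115-SRDX, against 5626, 6534 and 12647 in WT. All 3 were lowest in ERF115-SRDX 1 and 3, and LHCB2.3 stood apart in ERF115OX, where libraries 2 and 3 were well below library 1 and close to ERF114OX 1. In ERF115-SRDX against WT the log2 differences were -5.40 ± 0.99 (adjusted p = 0.00055) for LHCB2.1, -5.99 ± 1.202 (adjusted p = 0.0011) for LHCB2.2 and -5.44 ± 1.26 (adjusted p = 0.0029) for LHCB2.3. LHCB4.1 and LHCB4.2, which encode the minor antenna protein CP29 as LHCB4.3 does, had log2 differences of -4.39 ± 0.66 (adjusted p = 0.00012) and -4.68 ± 0.86 (adjusted p = 0.00057) in ERF115-SRDX. LHCB4.1 (AT5G01530) had 16173, 12265 and 13380.3 in ERF115OX, 5609, 20099 and 18698 in ERF114OX and 837, 5801 and 818 in ERF115-SRDX, against 33250.1, 22799 and 48040.3 in WT. LHCB4.2 (AT3G08940) had 9653, 7254 and 8048 in ERF115OX, 3201, 12420.1 and 11721 in ERF114OX and 304, 4709 and 277 in ERF115-SRDX, against 17482, 14672 and 26294 in WT. All 12 libraries stood in the same order for LHCB4.1 and LHCB4.2, and the ERF115-SRDX and WT ranges did not overlap. Of the LHCB genes not yet named, LHCB1.1 and LHCB1.2 had log2 differences of -6.30 and -5.88 in ERF115-SRDX, LHCB3 -4.97, LHCB5 -4.59 and LHCB6 -4.23, all called by limma.

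The photosystem I subunits include PSAD and PSAE, which form the docking site for ferredoxin, PSAF, which binds plastocyanin, and PSAG, PSAH, PSAK, PSAL, PSAN and PSAO, peripheral subunits that contact the antennae or plastocyanin. PSAF (AT1G31330) had 12072, 8616 and 9082 in ERF115OX, 4319.9, 11940.4 and 11695 in ERF114OX and 622, 4335 and 702 in ERF115-SRDX, against 23573, 15745 and 33601 in WT. Every library of both overexpressors lay below WT, and ERF114OX 1 lay next to ERF115-SRDX 2. Its log2 difference was -1.24 ± 0.62 (adjusted p = 0.15) in ERF115OX, -1.46 ± 0.62 (adjusted p = 0.085) in ERF114OX and -4.23 ± 0.62 (adjusted p = 9.2e-05) in ERF115-SRDX by limma. PSAF was among the 3 genes of the 40 with the smallest p in both overexpressors, where it did not pass the threshold over 12 libraries. With only 2 groups in the limma fit its adjusted p was 0.0073 in ERF115OX and 0.030 in ERF114OX, and over all settings 0.00095 to 0.34 and 0.0063 to 0.27. PSAD1 (AT4G02770) had 7446, 6309 and 7485 in ERF115OX, 3109.7, 8081 and 7348 in ERF114OX and 462, 3386 and 454 in ERF115-SRDX, against 13064, 9920.0 and 17839.7 in WT. Its paralogue PSAD2 (AT1G03130) had 2634, 2001 and 2461 in ERF115OX, 776, 2768 and 2855 in ERF114OX and 80.6, 1564 and 87.0 in ERF115-SRDX, against 5162, 4211 and 8333 in WT. For both paralogues the ERF115-SRDX libraries lay below all others except that ERF114OX 1 was below ERF115-SRDX 2, and the log2 differences were -3.89 ± 0.62 (adjusted p = 0.00019) for PSAD1 and -4.66 ± 0.90 (adjusted p = 0.00078) for PSAD2 by limma. PSAH2 fell most among these 10 genes, and PSAK least. PSAH2 (AT1G52230) had 3456, 2077 and 2421 in ERF115OX, 914, 4216 and 4090.5 in ERF114OX and 46.4, 1536 and 53.4 in ERF115-SRDX, against 7386, 4607 and 10580.1 in WT, with log2 difference -5.49 ± 1.05 (SE), limma adjusted p = 0.00077 in ERF115-SRDX. PSAK (AT1G30380) had 4958, 4106 and 3795 in ERF115OX, 2012, 5034 and 4955 in ERF114OX and 338, 2058 and 354 in ERF115-SRDX, against 7979.6, 6495 and 12720.4 in WT, with log2 difference -3.79 ± 0.58 (SE), limma adjusted p = 0.00013 in ERF115-SRDX. At 0.616% and 0.709% of the WT mean in ERF115-SRDX 1 and 3, PSAH2 kept less than PSAK at 3.72% and 3.90%, although both stood at about the same level in ERF115-SRDX 2, 20.4% and 22.7%. PSAE1, PSAG, PSAL, PSAN and PSAO had log2 differences from -5.32 for PSAL to -4.78 for PSAN.

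Of the photosystem II proteins, PSBO, PSBP and PSBQ form the oxygen-evolving complex on the lumen side, PSBR and PSBX are small membrane proteins of the core, and PSBS is the sensor that triggers dissipation of excess light as heat. PSBO1 (AT5G66570) had 19829, 17841 and 19391 in ERF115OX, 7597, 20999 and 19082 in ERF114OX and 1216, 7788 and 1171 in ERF115-SRDX, against 35037, 24503 and 47617 in WT. PSBO2 (AT3G50820) had 7030.2, 6705 and 6795 in ERF115OX, 2210.3, 6276 and 5824 in ERF114OX and 318, 2394 and 485 in ERF115-SRDX, against 10832, 7708 and 13955 in WT. For both paralogues the 3 ERF115OX libraries were tightly grouped, below WT and above ERF115-SRDX 2. The log2 differences in ERF115-SRDX were -3.95 ± 0.60 (adjusted p = 0.00013) for PSBO1 and -3.87 ± 0.60 (adjusted p = 0.00013) for PSBO2 by limma. Of the 7, PSBP1 fell most in ERF115-SRDX, with a log2 difference of -4.00 ± 0.60 (adjusted p = 0.00012), and PSBR least, with -3.23 ± 0.45 (adjusted p = 5.7e-05). PSBP1 (AT1G06680) had 14733, 12229.6 and 12835 in ERF115OX, 5613, 14293 and 13745 in ERF114OX and 817, 5648 and 872 in ERF115-SRDX, against 25142, 18433 and 35312 in WT. PSBR (AT1G79040) had 16779, 15601 and 14584 in ERF115OX, 6433, 16287 and 15096 in ERF114OX and 1360.4, 4859 and 1479.9 in ERF115-SRDX, against 18871, 15168 and 28385 in WT. For PSBR, ERF115OX 1 and 2 and ERF114OX 2 were above WT 2, and neither difference passed the limma test, with -0.36 ± 0.45 (adjusted p = 0.57) in ERF115OX and -0.79 ± 0.45 (adjusted p = 0.19) in ERF114OX. PSBQ2 (AT4G05180) had 4361, 3141 and 3393 in ERF115OX, 1525, 4643 and 4698 in ERF114OX and 216, 2138 and 245 in ERF115-SRDX, against 7860.0, 5433 and 10759 in WT, with log2 difference -3.99 ± 0.71 (SE), limma adjusted p = 0.00043 in ERF115-SRDX. PSBX (AT2G06520) had 6706, 4969 and 5444 in ERF115OX, 2806, 7800.0 and 7520.1 in ERF114OX and 739.7, 2949 and 727 in ERF115-SRDX, against 11429, 8602 and 17138 in WT, with log2 difference -3.35 ± 0.51 (SE), limma adjusted p = 0.00012 in ERF115-SRDX. PSBX kept more in ERF115-SRDX 1 and 3 than all but 2 of the 40 genes, at 5.97% and 5.86% of the WT mean. PSBX was also among the 3 genes with the smallest p in the overexpressors, with -1.07 ± 0.51 (adjusted p = 0.13) in ERF115OX and -1.12 ± 0.51 (adjusted p = 0.10) in ERF114OX. PSBS (AT1G44575) had 6409, 5339 and 5223 in ERF115OX, 2166, 6409 and 5901 in ERF114OX and 361, 2529 and 328 in ERF115-SRDX, against 11165, 7099 and 13868 in WT. It fell in ERF115-SRDX with a log2 difference of -3.94 ± 0.64 (adjusted p = 0.00022), and its libraries in both overexpressors lay below WT without being called by limma over 12 libraries (adjusted p = 0.33 and 0.15).

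Among the Rubisco genes, RBCS1A had the highest level of the small subunit genes in every group, at 64986, 54491 and 8361 normalized counts per kb of coding sequence in ERF115OX, ERF114OX and ERF115-SRDX, against 138145 in WT. By library RBCS1A (AT1G67090) had 43517, 29927 and 32419 in ERF115OX, 10354, 39868 and 38543 in ERF114OX and 348, 12779 and 493 in ERF115-SRDX, against 78648, 45822 and 100568 in WT (normalized counts). RBCS3B (AT5G38410) had 17819.8, 10828 and 11966 in ERF115OX, 4362, 23662 and 23042 in ERF114OX and 64.5, 6242 and 150.3 in ERF115-SRDX, against 42434, 32495 and 77882 in WT. Both were under 1% of the WT mean in ERF115-SRDX 1 and 3 and fell, with log2 differences of -5.78 ± 1.04 (adjusted p = 0.00046) and -6.91 ± 1.27 (adjusted p = 0.00055) by limma. RBCS1B (AT5G38430) had 1667, 1373 and 1331 in ERF115OX, 529, 1271 and 1485 in ERF114OX and 2.02, 715 and 13.8 in ERF115-SRDX, against 4555, 2329 and 5466 in WT. It had the largest change of the Rubisco genes in ERF115-SRDX, -6.93 ± 1.39 (adjusted p = 0.0010), and in ERF115-SRDX 1 it rested on 2 reads, under the floor. RBCS2B (AT5G38420) had 4917, 2468 and 2297 in ERF115OX, 1311, 5955 and 5657 in ERF114OX and 23.2, 3194 and 22.7 in ERF115-SRDX, against 2361, 6041 and 9237 in WT. WT 1 was its lowest WT library by a wide margin, as for no other gene of the 40, and ERF115-SRDX 2, ERF114OX 2 and 3 and ERF115OX 1 and 2 were above it. Its log2 difference in ERF115-SRDX was -5.38 ± 1.46 (adjusted p = 0.0081) by limma, beside an adjusted p of 0.12 with edgeR and 0.15 with DESeq2 and a range of 2.7e-08 to 0.15 over the settings. In ERF114OX its log2 difference was -0.53, not called, and it was 0.19 without ERF114OX 1. RCA (AT2G39730), the activase gene, had 53357, 51641 and 54308 in ERF115OX, 16432, 44735 and 43938 in ERF114OX and 1555, 13787 and 1543 in ERF115-SRDX, against 94371, 56259.8 and 130377 in WT. Its 3 ERF115OX libraries were within 51641 to 54308, below WT 2, and ERF115-SRDX 1 and 3 differed little from each other. It fell in ERF115-SRDX, with a log2 difference of -4.78 ± 0.69 (adjusted p = 8.1e-05) against WT and -4.05 ± 0.69 (adjusted p = 0.00029) against ERF115OX by limma.

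RBCS1B, RBCS2B and RBCS3B lie close together on chromosome 5 on the minus strand, with coding sequences 96.7 to 97.3% identical, so reads could be split among them and their separate values are uncertain. The promoters of RBCS2B and RBCS3B, which are next to each other, are shown because WT 1 stood above WT 2 for RBCS3B and far below it for RBCS2B. WT 1 and WT 2 are libraries of the same genotype, and any link of promoter motifs to this difference was not tested. They are the 250 bases before each annotated start in TAIR10.1 from RefSeq, chromosome 5, minus strand, chr5:15382072-15382321 for RBCS2B and chr5:15378643-15378892 for RBCS3B, 5′ to 3′ along the gene, with the G-box CACGTG and the I-box GATAAG, or its reverse complement CTTATC, in capitals.
RBCS2B: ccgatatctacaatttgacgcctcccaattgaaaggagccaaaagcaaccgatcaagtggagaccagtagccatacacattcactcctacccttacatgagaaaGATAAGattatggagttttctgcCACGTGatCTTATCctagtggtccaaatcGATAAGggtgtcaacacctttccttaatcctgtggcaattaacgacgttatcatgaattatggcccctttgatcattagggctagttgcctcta
RBCS3B: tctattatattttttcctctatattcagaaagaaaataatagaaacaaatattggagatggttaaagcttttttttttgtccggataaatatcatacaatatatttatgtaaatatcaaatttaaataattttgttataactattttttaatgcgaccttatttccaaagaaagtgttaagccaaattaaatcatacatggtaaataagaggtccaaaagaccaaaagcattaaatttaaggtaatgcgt
The RBCS2B window holds 1 G-box, with its first base at position -123, and 3 I-boxes, at -146, -115 and -94, and the RBCS3B window holds neither motif. Among the promoters of all 40 genes, 7 held the G-box (17.5%), against 6.49% of the promoters of 27443 protein-coding genes of the same length. The I-box was in 11 (27.5%, against 12.3%) and CCAATC in 12 (30.0%, against 10.2%). The GCC-box GCCGCC, the sequence that ERF factors are known to bind, was in 0 (against 1.87%). All motifs were searched on both strands. With a share that low, 0 of 40 windows of 250 bases is near the background and tells nothing of binding, which was not tested.

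The 40 genes moved together within each line as well as between lines. ERF115-SRDX 2 was the highest library of its line for all 40 genes, ERF114OX 1 the lowest of its line for all 40, and WT 3 the highest WT library for all 40. In ERF115OX the first library was highest for 36 genes, and the exceptions were LHCB1.5, PSAD1, RCA and LHCB4.3. ERF115-SRDX 2 exceeded the mean of ERF115-SRDX 1 and 3 by 1.48-fold for LHCB4.3 up to 139-fold for RBCS2B, with a median of 16.5. ERF114OX 1 stood at 0.163 times the mean of ERF114OX 2 and 3 for LHCB1.4 and at 0.609 times for LHCB4.3, with a median of 0.293. In WT the ratio of WT 3 to WT 2 was narrower, 1.53 for RBCS2B to 2.40 for RBCS3B. In ERF115OX the ratio of library 1 to the mean of libraries 2 and 3 ran from 0.781 for LHCB4.3 to 2.80 for LHCB1.2. What remained in ERF115-SRDX 1 and 3 differed more between genes than the levels in ERF115-SRDX 2: the range over the 40 genes was 0.0490% (RBCS1B) to 11.1% (LHCB4.3) of the WT mean in ERF115-SRDX 1, and 10.11% (LHCB1.4) to 54.3% (RBCS2B) in ERF115-SRDX 2.

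**Figure D4:**
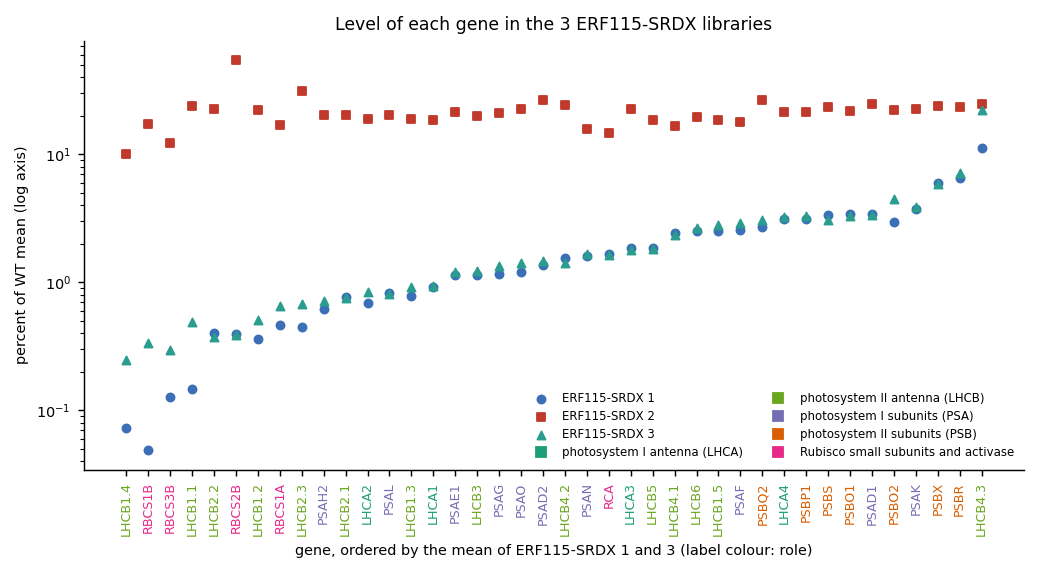
Level of each of the 40 genes in ERF115-SRDX 1, 2 and 3 as a percentage of the WT mean on a log axis, ordered by the mean of libraries 1 and 3, with gene names coloured by role. Library 2 lies above libraries 1 and 3 for every gene and shows no such climb, while libraries 1 and 3 climb from LHCB1.4 and the RBCS genes at the left to PSBX, PSBR and LHCB4.3 at the right.

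The makeup of the pool of photosynthesis transcripts shifted where the pool was small. Photosystem II proteins made up 10.96, 12.5 and 12.04% of the summed counts of the 40 genes in ERF115OX, 12.9, 10.4 and 10.3% in ERF114OX and 25.2, 11.7 and 24.6% in ERF115-SRDX, against 10.3, 10.4 and 9.77% in WT. The Rubisco genes made up 17.5, 18.3 and 18.2% in ERF115OX, 14.97, 15.7 and 16.2% in ERF114OX and 9.96, 15.2 and 10.3% in ERF115-SRDX, against 19.0, 17.0 and 18.9% in WT. ERF115-SRDX 1 and 3 thus stood apart from the other 10 libraries with more photosystem II and less Rubisco transcript, and ERF115-SRDX 2 lay with the rest. Within the LHCB1 family, LHCB1.5 took 33.1, 43.5 and 44.0% in ERF115OX, 43.5, 29.7 and 31.2% in ERF114OX and 65.95, 27.7 and 61.5% in ERF115-SRDX, against 27.4, 31.2 and 27.9% in WT. Its share was highest in ERF115-SRDX 1 and 3, and it was above WT also in the 3 ERF115OX libraries and in ERF114OX 1. Within the RBCS family, RBCS1A took 79.5, 55.7 and 72.5% in ERF115-SRDX, against 61.4, 52.9 and 52.1% in WT. Within the PSAD pair PSAD1 took 85.1, 68.4 and 83.9% in ERF115-SRDX, against 71.7, 70.2 and 68.2% in WT, and within the PSBO pair PSBO1 took 79.3, 76.5 and 70.7%, against 76.4, 76.1 and 77.3%, where the libraries overlapped. These shares are descriptions, with no test.

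**Figure D5:**
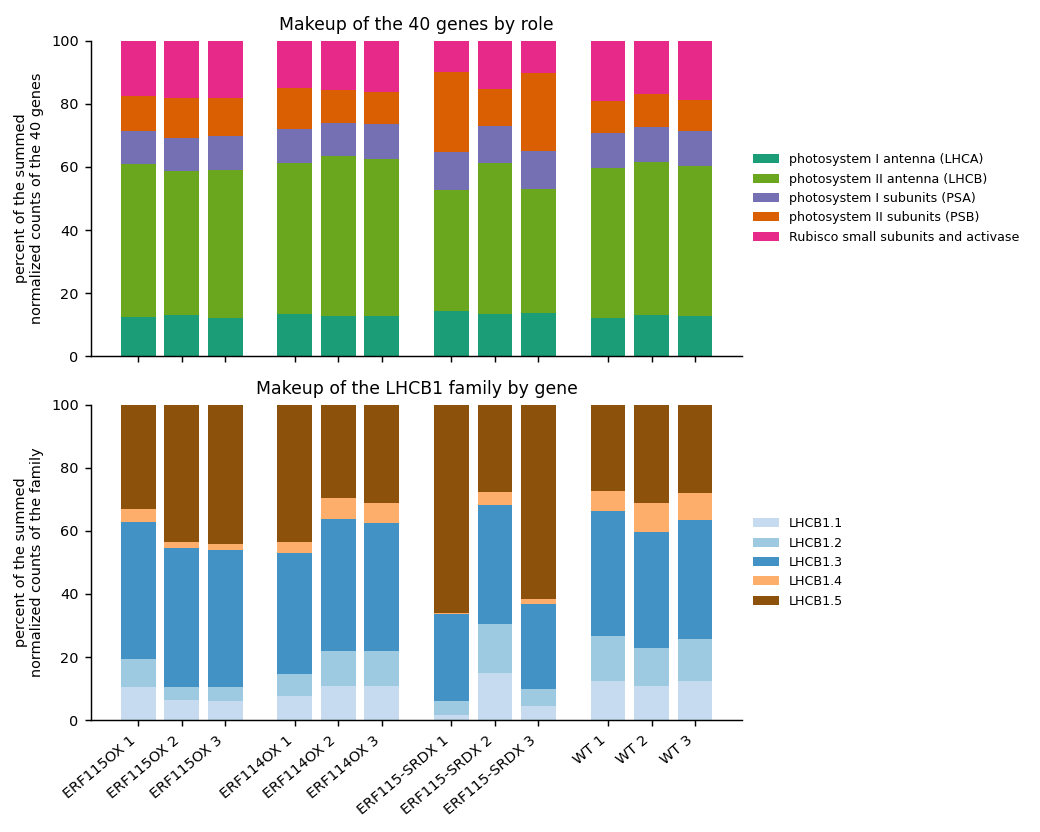
Makeup of the pool in each of the 12 libraries, as stacked bars from 0 to 100%: above, the share of each role in the summed normalized counts of the 40 genes, and below, the share of each gene in the summed counts of the LHCB1 family. ERF115-SRDX 1 and 3 differ from all other bars, with photosystem II proteins at 25.2% and 24.6% and LHCB1.5 at 65.95% and 61.5% of its family.

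Other genes with the pattern of the 40 were sought by Pearson's r of log2 values with their mean over the 12 libraries, among 19264 others averaging 100 normalized counts or more, as a description. Of the 15 most alike, with r from 0.9948 to 0.9995, 10 were in the lists of further pathway genes, led by PSAH1, PSBTN and GAPA2. The 2 most alike, AT4G28755 and AT1G55673, overlap PSAE1 and PSAG on the opposite strand and had 69.5 to 78.2% and 85.5 to 93.6% of the counts of these genes. Another, ROPGEF13, overlaps PSAH1 on the opposite strand, and the remaining 2 outside the lists were PTAC16 and CSP41A, both of which encode plastid proteins. PTAC16 (AT3G46780) had 1987, 1509.8 and 1509 in ERF115OX, 623, 2199 and 2129 in ERF114OX and 27.2, 988 and 31.6 in ERF115-SRDX, against 6458, 3776 and 8989.6 in WT. CSP41A (AT3G63140) had 1693, 1457 and 1729 in ERF115OX, 581, 1755 and 1637 in ERF114OX and 57.4, 611 and 47.5 in ERF115-SRDX, against 3696, 2383 and 4959.9 in WT, and for both ERF115-SRDX 1 and 3 were lowest, with ERF114OX 1 and then ERF115-SRDX 2 next. No source used here states whether the counting used strand, and reads of a gene and of an overlapping partner cannot be told apart. The non-coding gene AT2G08665, on the opposite strand of LHCB1.5, had the same value as LHCB1.5 in all 12 libraries, so the same reads were counted for both genes. AT1G05207, opposite LHCB6, had 27.2 to 29.8% of its counts. The likeness of AT4G28755, AT1G55673 and ROPGEF13 may thus be that of reads shared with their partners, and is no separate observation. Of the 40 genes, LHCB4.3 was least like the mean of the other 39, with r = 0.865, followed by RBCS2B with 0.960.

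The rest of the photosynthetic pathway was followed in lists of further genes. Of 24 other genes of the photosystems and electron transport, all 24 fell in ERF115-SRDX against WT, 1 in ERF115OX and 9 in ERF114OX (background 26.6%, 15.7% and 19.6% lower), with a median log2 difference of -3.71, -0.87 and -1.10. With only the 2 groups compared the counts were 24, 21 and 16 (background 25.8%, 14.6% and 18.0%), and without ERF114OX 1 and ERF115-SRDX 2 24, 22 and 16 (background 25.5%, 17.8% and 19.1%). PGR5, of cyclic electron flow around photosystem I, averaged 469.9 ± 99.3 in ERF115-SRDX, against 1415 ± 267 in WT (SD, n = 3 each), with no overlap between ERF115-SRDX and WT (log2 difference -1.59 ± 0.16 (SE), limma adjusted p = 4e-06). FNR2, ferredoxin-NADP reductase, was the gene called in ERF115OX (log2 difference -1.65 ± 0.54 (SE), limma adjusted p = 0.034, 0.00055 to 0.11 over the settings), and the call was lost without ERF115OX 2, ERF115OX 3, WT 1 or WT 3. LHCB7, a rare antenna gene, had the smallest p in ERF114OX (log2 difference -0.66 ± 0.14 (SE), limma adjusted p = 0.0032).

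Of 24 chlorophyll synthesis genes 23 were tested, and 22 fell in ERF115-SRDX, 17 in ERF115OX and 19 in ERF114OX (background 26.6%, 15.7% and 19.6%), with a median log2 difference of -2.03, -1.01 and -1.12. HEMA2, an isoform of glutamyl-tRNA reductase known to be expressed in roots, was the only one that rose, in ERF115-SRDX, with 1186, 1221 and 1188 in ERF115OX, 1144, 1186 and 1195 in ERF114OX and 1498, 1528 and 1349 in ERF115-SRDX, against 1240.3, 1087 and 1196 in WT (log2 difference 0.31 ± 0.06 (SE), limma adjusted p = 0.0013). HEMA1, the main isoform of green tissue, had 5029, 4148 and 4115 in ERF115OX, 3165, 4774 and 4691 in ERF114OX and 2166, 2753 and 2041 in ERF115-SRDX, against 6174, 4740.0 and 7892 in WT. It fell in ERF115-SRDX (log2 difference -1.42 ± 0.19 (SE), limma adjusted p = 4.8e-05), where all 3 libraries lay below WT. Its log2 difference was -0.48 ± 0.19 (adjusted p = 0.077) in ERF115OX and -0.57 ± 0.19 (adjusted p = 0.036) in ERF114OX by limma, the call in ERF114OX being lost without ERF114OX 1, WT 1 or WT 3 (0.0092 to 0.15 over the settings). The protochlorophyllide reductase genes PORB and PORC fell in ERF115-SRDX, with log2 differences of -3.93 ± 0.70 (adjusted p = 0.00041) and -3.48 ± 0.49 (adjusted p = 6.7e-05), as did GSA2, glutamate-1-semialdehyde aminotransferase, with the smallest p of the list, -2.14 ± 0.22 (adjusted p = 3.8e-06) by limma. The PORB and PORC calls in the overexpressors were lost on leaving out single libraries, with adjusted p for PORB from 0.0012 to 0.14 in ERF115OX and 0.0027 to 0.097 in ERF114OX and for PORC from 0.00031 to 0.081 and 0.0033 to 0.088, WT 1 and WT 3 among these libraries in each case. PORA, known from dark-grown seedlings, had at most 9.72 normalized counts in a library and was not tested.

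Of 17 Calvin cycle genes 16 fell in ERF115-SRDX (background 26.6% lower) and TKL2, a transketolase gene, rose (background 23.4% higher). In each overexpressor 3 fell, near the background of 15.7% in ERF115OX and 19.6% in ERF114OX. TKL2 rose in both (background 16.4% and 17.5% higher). Without ERF114OX 1 and ERF115-SRDX 2 in the fit the number that fell was 11 in ERF115OX and 10 in ERF114OX (background 17.8% and 19.1%). CP12-1, a regulatory protein gene, had 5812, 5749 and 6860.1 in ERF115OX, 3550.2, 6743 and 5553 in ERF114OX and 682, 1226 and 792 in ERF115-SRDX, against 8411, 5858 and 9626 in WT, with all 3 ERF115-SRDX libraries below the rest (log2 difference -3.16 ± 0.25 (SE), limma adjusted p = 4.8e-07). TKL2 (AT2G45290) had 8413, 8843 and 9007 in ERF115OX, 8706, 8968 and 9331 in ERF114OX and 8469.8, 8519 and 7984 in ERF115-SRDX, against 7174, 7423 and 7142 in WT, and in all 3 lines every library was above WT, with log2 differences of 0.27 ± 0.05 (adjusted p = 0.0013), 0.31 ± 0.05 (adjusted p = 0.00045) and 0.20 ± 0.05 (adjusted p = 0.0035). PGK1, plastid phosphoglycerate kinase, had the smallest p among those that fell in ERF115OX (log2 difference -0.83 ± 0.23 (SE), limma adjusted p = 0.015, 0.0022 to 0.066 over the settings, lost without WT 1 or WT 3) and in ERF114OX (log2 difference -1.04 ± 0.23 (SE), limma adjusted p = 0.0040). Of 12 photorespiration genes 11 were tested, and all 11 fell in ERF115-SRDX (background 26.6%), 2 in ERF115OX, near the background of 15.7%, and 7 in ERF114OX (background 19.6%). Without ERF114OX 1 and ERF115-SRDX 2 they were 8 and 9 in the overexpressors (background 17.8% and 19.1%). GLYK, glycerate kinase, which ends the pathway, had 6369, 7247 and 7405 in ERF115OX, 3939, 4938 and 4849.9 in ERF114OX and 1312, 1392 and 1370.2 in ERF115-SRDX, against 7465, 7484 and 10090.1 in WT. Its 3 ERF115-SRDX libraries lay below all other libraries, and ERF115-SRDX 2 differed little from the other two (log2 difference -2.60 ± 0.12 (SE), limma adjusted p = 2.3e-09).

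Of 25 regulators of photosynthesis genes, 21 fell and none rose in ERF115-SRDX, 8 fell and 2 rose in ERF115OX, and 12 fell and 1 rose in ERF114OX. Over all genes 26.6%, 15.7% and 19.6% fell, and 23.4%, 16.4% and 17.5% rose, so the regulators that rose were fewer than that share in each line. Without ERF114OX 1 and ERF115-SRDX 2 in the fit 13 fell and 2 rose in ERF115OX (background 17.8% lower). GLK2 (AT5G44190) had 1653, 1746 and 1805 in ERF115OX, 1120.1, 1948 and 1655 in ERF114OX and 348, 562 and 345 in ERF115-SRDX, against 1658, 1493 and 2075 in WT. It fell in ERF115-SRDX (log2 difference -2.08 ± 0.21 (SE), limma adjusted p = 4e-06), where all libraries were below the rest and ERF115-SRDX 2 was the highest of its line, and its difference was 0.01 ± 0.21 (adjusted p = 0.99) in ERF115OX and -0.17 ± 0.21 (adjusted p = 0.56) in ERF114OX by limma. GLK1, its homologue, had a log2 difference of -3.20 ± 0.77 (adjusted p = 0.0036) in ERF115-SRDX, with no call in the overexpressors. HY5 (AT5G11260), a light signalling bZIP factor, had 872, 1111 and 1079 in ERF115OX, 1301, 1178 and 1084 in ERF114OX and 817, 858 and 832 in ERF115-SRDX, against 748, 806 and 854 in WT. It rose in ERF114OX (log2 difference 0.56 ± 0.10 (SE), limma adjusted p = 0.00090) and in ERF115OX (log2 difference 0.34 ± 0.10 (SE), limma adjusted p = 0.017, 0.0025 to 0.076 over the settings, lost without ERF115OX 2, ERF115OX 3 or WT 1), with every library above WT in both lines, and was not called in ERF115-SRDX (log2 difference 0.06 ± 0.10 (SE), limma adjusted p = 0.63). GUN1, of plastid-to-nucleus signalling, fell in all 3 lines, with log2 differences of -0.30 ± 0.07 (adjusted p = 0.0072), -0.30 ± 0.07 (adjusted p = 0.0065) and -0.33 ± 0.07 (adjusted p = 0.0017). PIF3, a phytochrome-interacting factor, fell in ERF115OX (log2 difference -1.26 ± 0.17 (SE), limma adjusted p = 0.00024) and in ERF114OX (log2 difference -1.51 ± 0.17 (SE), limma adjusted p = 6.1e-05), and SIG5, a plastid sigma factor, rose in ERF115OX (log2 difference 0.62 ± 0.12 (SE), limma adjusted p = 0.0022). PHYA, the far-red light receptor, fell in ERF115-SRDX with no overlap with WT (log2 difference -0.98 ± 0.06 (SE), limma adjusted p = 7.6e-08), and its adjusted p was 0.54 in ERF115OX and 0.51 in ERF114OX by limma.

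Of 15 plastid genes listed as root-type or housekeeping 7 fell and 5 rose in ERF115-SRDX, 3 fell and 5 rose in ERF115OX and 4 fell and 4 rose in ERF114OX, with a median log2 difference of -0.11, 0.01 and 0.01. The list is mixed, since it also holds TOC159, which serves photosynthetic precursors. The numbers lower in the overexpressors are near the background of 15.7% and 19.6%, and those higher stand beside 16.4% and 17.5% (26.6% lower and 23.4% higher over all genes in ERF115-SRDX). TOC159 (AT4G02510), the import receptor for photosynthetic precursors, had 15041, 15313 and 15253 in ERF115OX, 13996, 15035 and 15305 in ERF114OX and 69564, 69418 and 64810.1 in ERF115-SRDX, against 16963, 16434 and 15834 in WT. It rose in ERF115-SRDX in all 3 libraries alike (log2 difference 2.05 ± 0.05 (SE), limma adjusted p = 4.3e-11, and 2.16 ± 0.05 (adjusted p = 1.6e-11) against ERF115OX). TOC33 had the smallest p of the list among those that fell in ERF115-SRDX against WT (log2 difference -1.24 ± 0.14 (SE), limma adjusted p = 1.3e-05). FD3, the root-type ferredoxin gene, rose in ERF115OX (log2 difference 0.41 ± 0.05 (SE), limma adjusted p = 0.00019) and ERF114OX (log2 difference 0.41 ± 0.05 (SE), limma adjusted p = 0.00016), and fell in ERF115-SRDX, where all libraries lay below WT (log2 difference -0.20 ± 0.05 (SE), limma adjusted p = 0.0060).

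Of 11 seed storage and oil genes 6 were tested, of which 5 fell in ERF115-SRDX (background 26.6%) and 1 in each overexpressor, near the background of 15.7% and 19.6%. Here too a low gene could pass the filter through WT and ERF114OX, as CRU3 did with 167 and 97 reads, against 2 in ERF115-SRDX and 0 in ERF115OX. The median log2 difference of the 6 was -3.30 for ERF115-SRDX, -1.07 for ERF115OX and 1.51 for ERF114OX. The gene called in both overexpressors, ICL, isocitrate lyase of oil breakdown, had 1737, 2285 and 2371 in ERF115OX, 1376, 1084 and 1120.4 in ERF114OX and 1516, 1189 and 1169 in ERF115-SRDX, against 11353, 9535 and 24886 in WT, with no overlap between any line and WT (log2 difference -3.44 ± 0.28 (SE), limma adjusted p = 4.8e-07 in ERF115-SRDX). Of the 17 root cell type genes 2 fell and 3 rose in ERF115OX and 1 fell and 3 rose in ERF114OX, at or below the background of 15.7% and 19.6% lower and near that of 16.4% and 17.5% higher.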

How the data were processed

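The deposited table held DESeq2-normalized counts per gene (signal, by the authors) for the 12 root libraries. Per the labels' protocols, mRNA was purified on oligo(dT) beads and the second cDNA strand carried dUTP. The submitters' processing notes name Trimmomatic 0.39 and HISAT2 2.2.1, then SAMtools 1.11, featureCounts from Subread 2.0.1, and DESeq2. Build, annotation and strand setting: not given in the sources used here. Dividing by each library's smallest step gave whole reads for all but 1 of 316348 positive values (tolerance 1e-06), and these reads went to the count tests.

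The 23375 genes averaging 10 normalized counts or more were tested with limma 3.58.1 (R 4.3.3; trend) on log2(normalized count + 1), with 12 libraries in 1 fit and Benjamini-Hochberg adjustment; a log2 difference on this scale understates changes of low genes. Overlaps of libraries are counts, not tests, and 3 libraries against 3 cannot reach an exact permutation p under 0.10. Alternatives were count tests on the recovered reads with edgeR 4.0.16 and with DESeq2 1.42.0, TMM scaling, pseudocounts 0.5 and 4, no filter or a mean of 50, array weights per group, a replicate block, only the 2 groups compared, and left-out libraries. The array weights were shared by all libraries of a group, so they could not lower the weight of a single library. Scripts were tested on simulated data. The genes and lists were chosen with earlier results of these data known, and no test over a list was made. Named were, by role, the genes with the highest and lowest mean and the largest and smallest change in ERF115-SRDX, the 3 smallest p-values per comparison, paralogue families, RCA and PSBS, and, from each further list, called genes with the smallest p and GLK1, GLK2, HY5, GUN1, PORA, PORB, PORC and HEMA1. Promoters and coding sequences were read from RefSeq TAIR10.1 by locus tag (all 37884 identifiers matched). Genes of the plastid genome were not analysed here.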

Additional observations from a re-analysis of the deposited data

How the results depend on the processing

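All 40 genes fell in ERF115-SRDX against WT in limma under every setting tried and on leaving out each library, with medians of -6.04 to -4.13; edgeR called 39 and DESeq2 38. Against ERF115OX the count on leaving out a library was 36 to 40, with medians of -4.99 to -3.07. The count in ERF115OX against WT, 1 of 40, was 36 with only the 2 groups compared, 1 to 19 on leaving out a library, and 38 without ERF114OX 1 and ERF115-SRDX 2, with medians of -1.33 to -0.80 on leaving out a library. The count in ERF114OX against WT, 1 of 40, was 12, 1 to 35 and 32 in the same settings, with medians of -1.64 to -0.77; these fits estimate the spread from other libraries. Of 7260 values of single genes in other settings 6881 kept their direction and side of the threshold, 223 came to pass it, 132 no longer passed it and 24 changed sign, 23 of them without passing the test before or after. MLS, malate synthase, in ERF114OX passed it without WT 3 (limma adjusted p = 0.021, 0.021 to 0.62 over the settings), and its log2 difference ran from -0.54 to 0.21 on leaving out a library. The other ranges on leaving out a library were -0.0081 to 0.25 for PSBP2, -0.024 to 0.072 for HEMA2, -0.098 to 0.14 for GLK2 and -0.71 to 0.044 for MLS in ERF115OX, -1.1 to 0.19 for RBCS2B, -0.052 to 0.043 for HEMA2, -0.91 to 0.064 for GLK1 and -0.34 to 0.058 for GLK2 in ERF114OX, and -0.24 to 0.032 for PIF3 and -0.067 to 0.0011 for GUN1 in ERF115-SRDX against ERF115OX. With TMM scaling, edgeR and DESeq2, GLK2 in ERF115OX was -0.017, -0.033 and -0.015 and HEMA2 in ERF114OX -0.035, -0.041 and -0.0079. Without ERF114OX 1 and ERF115-SRDX 2, RBCS2B, GLK1 and GLK2 in ERF114OX were 0.19, 0.064 and 0.058; the cause was not tested. Whether replicate numbers pair the samples is not known, and the main fit did not pair them. The 18 correlations of same-numbered libraries ran from -0.283 to 0.440, with 4 above 0.1, and cannot settle it. The highest, 0.440 and 0.378, were between ERF114OX and ERF115-SRDX, for libraries 1 and 2. With the replicate block the counts were 1 in ERF115OX, 1 in ERF114OX, 40 in ERF115-SRDX, and 40 for ERF115-SRDX set against ERF115OX. Leaving out ERF114OX 1 and ERF115-SRDX 2 was chosen because they were known to stand apart in these genes, and its counts of further genes, with those of the 2-group fit, were added after seeing the data. Shares without organelle genes were not computed, as plastid genes were not analysed here. Depth limits the lowest values: a count of 3 reads or fewer, as for RBCS1B in ERF115-SRDX 1, does not fix a level.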
